A study of Mus musculus with 2 samples.

Results

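NRF2, encoded by Nfe2l2, is the transcription factor that drives the antioxidant program of mammalian cells. The 9 genes described here are Nfe2l2, its inhibitor Keap1 and 7 targets (Nqo1, Gclc, Gclm, Gstm1, Txnrd1, Srxn1 and Prdx1). They were chosen by the gene name printed on the array, and they hold 15 of the 36717 measured probes (called well above background by the scanner software on both arrays), and 9 of the 24112 genes those probes measure. The tissue was brain of C57BL/6J mice at postnatal day 10, hybridised to 1-colour Agilent arrays. It came from 1 sample of the genotype GPHR F/F;Nes and from 1 GPHR F/F littermate, so the GPHR F/F allele is shared by both. The labels spell out neither the Nes element nor how many animals gave a sample. GPHR stands for Golgi pH regulator, an anion channel that resides in Golgi membranes.

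In unstressed cells KEAP1 holds NRF2 for ubiquitination by a cullin ligase, and oxidants or electrophiles that modify KEAP1 cysteines let NRF2 accumulate. NRF2 then pairs with a small MAF protein on antioxidant response elements and raises genes of glutathione synthesis, thioredoxin recycling, quinone reduction and NADPH supply. In brain the program is known to be stronger in glia and in cells of vessels and linings than in neurons.

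With 1 array per genotype no difference has a replicate check, no test was made and no p-value is given. A difference is the log2 signal in GPHR F/F;Nes minus that in GPHR F/F, after subtraction of the log2 75th percentile of the array (173.4 units in GPHR F/F;Nes and 259.5 units in GPHR F/F). The ± value is the scanner software's error of that difference and leaves out variation between animals. It was close to 0.20 for a bright gene with 1 probe. For comparison, the differences of all genes had an SD of 0.57, and probes of the same gene differed among themselves by a pooled SD of 0.36 (8078 genes with several probes). "Higher" and "lower" below are relative to the 75th percentile. Against 8 spike-in control RNAs every log2 difference is smaller by 0.95, which places 7 of the 9 genes below 0 and leaves Nfe2l2 and Nqo1 above it. Setting a gene against the median difference of all genes, 0.07, gives a value that no constant scaling can move.

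The arrays also differed in other ways. The targeted gene, Gpr89, read 20.04 units in GPHR F/F;Nes and 43.3 units in GPHR F/F, a difference of -0.53 ± 0.22 from a probe whose place relative to any deleted part the labels do not give. The Xist probe cleared background only on the GPHR F/F;Nes array, and probes of Eif2s3y, Ddx3y and Uty only on the GPHR F/F array, so sex and genotype cannot be told apart here. Among markers of neurons, astrocytes and oligodendrocytes, all 34 listed were measured on both arrays.

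As a group, 8 of the 9 genes lay above 0 and Keap1 lay below, with a median difference of 0.50, or 0.42 above the median of all genes. Nfe2l2 alone was at least 2-fold higher (1 of 9, against 7.93% of all measured genes), and 0 of 9 were 2-fold lower (1.37% of all genes). At 1.5-fold, 4 of the 9 were higher, namely Nfe2l2, Nqo1, Srxn1 and Gstm1, against 18.1% of all genes, and 0 of 9 were lower by that much (5.73% of all genes). Above 0 lay 56.9% of all genes. On the scale of the spike-in RNAs the median of the 9 was -0.45, still 0.42 above the median of all genes, which stood at -0.88.

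**Figure D1:**
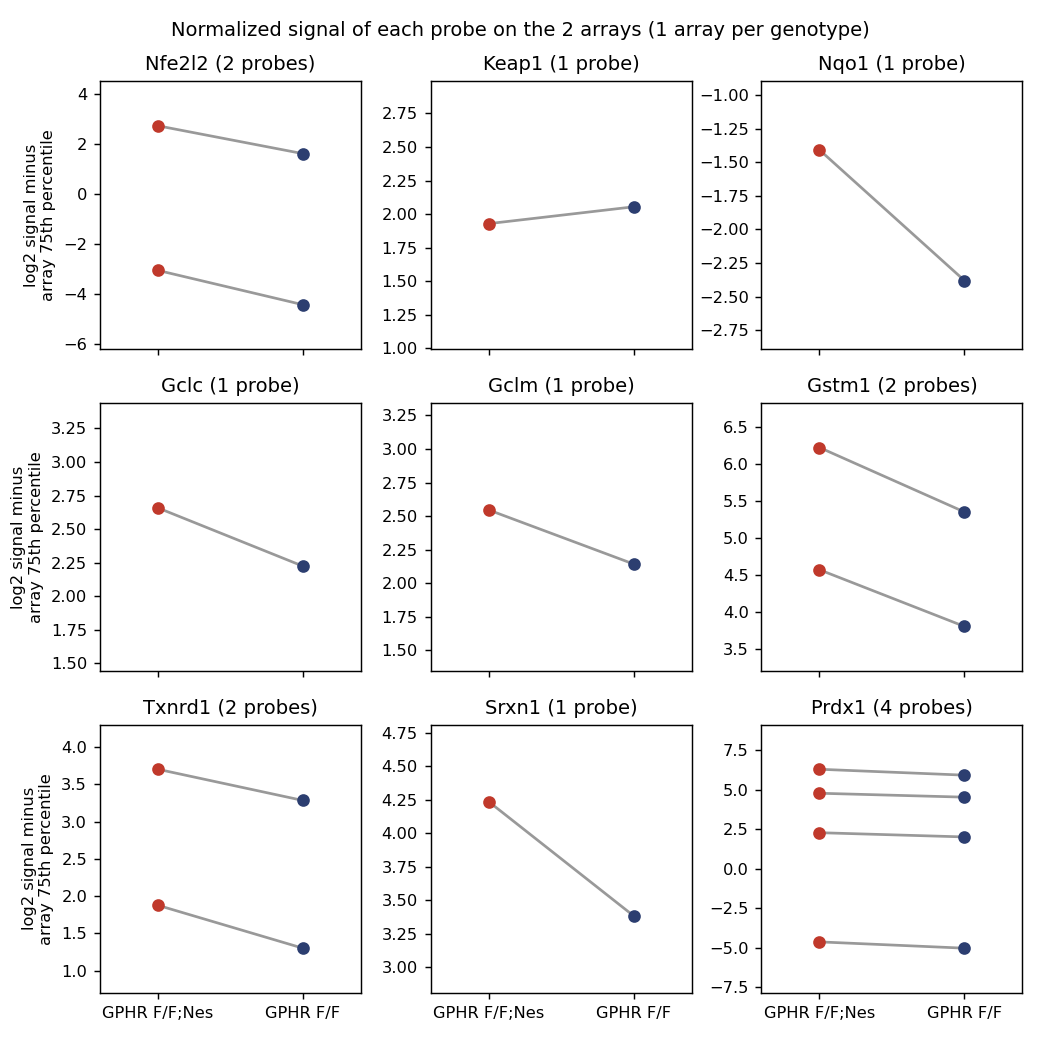
Each panel shows 1 gene, with the log2 signal minus the array's 75th percentile on the vertical axis (its span differs between panels) for GPHR F/F;Nes on the left and GPHR F/F on the right. A line joins the 2 readings of a probe. All 14 probes of the other 8 genes slope down to the right and the Keap1 probe slopes up. Against spike-in RNAs every line would tilt by 0.95 the other way.

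Nfe2l2, the gene of the transcription factor itself, had the largest difference of the 9, 1.24 ± 0.17 (2.37-fold). The array carries it on a pair of 60-base probes, shown because they read different transcripts and gave the same direction. Both lie on the minus strand of mm9, at chr2:75513771-75513830 for the mRNA and at chr2:75529291-75529350 for a separate Ensembl transcript model.
Nfe2l2 mRNA probe: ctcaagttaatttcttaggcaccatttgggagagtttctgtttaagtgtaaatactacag
Nfe2l2 transcript model probe: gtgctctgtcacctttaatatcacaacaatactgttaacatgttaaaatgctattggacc
The mRNA probe read 1151 units in GPHR F/F;Nes and 796.1 units in GPHR F/F, a difference of 1.11 ± 0.20. The other probe was dim, at 20.9 units in GPHR F/F;Nes and 12.1 units in GPHR F/F, with a difference of 1.37 ± 0.28. Probes as dim as this one differed by a median of 0.35, whereas probes at the level of the mRNA probe differed by a median of -0.11 (SD 0.44, 1463 probes). Of all measured genes, 4.77% had a larger difference than Nfe2l2. It stayed above 0 in all 11 alternative settings, from 0.29 (spike-in scaling) to 1.24, but was under 2-fold with each array centred on its median (0.97), after normexp background correction (0.68) and after spike-in scaling.

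Keap1, which encodes the adaptor that binds NRF2 for degradation, was the exception. Its probe is shown because it is the only one of the 15 with a negative difference. It spans 441 bp of the minus strand at chr9:21035292-21035732 of mm9, longer than its 60 bases, so the probe joins separate genomic stretches.
Keap1 probe: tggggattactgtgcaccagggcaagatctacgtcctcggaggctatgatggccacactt
It read 660.0 units in GPHR F/F;Nes and 1078 units in GPHR F/F. The difference of -0.13 ± 0.20 was within the scanner error and close to the median of -0.10 among genes in its bin of signal level. Keap1 stayed below 0 in all 11 alternative settings, from -1.08 (spike-in scaling) to -0.02 (loess correction). Nfe2l2 exceeded Keap1 by 1.37, against a combined scanner error of 0.27, and this gap does not depend on how the arrays are scaled by a constant.

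Nqo1, the quinone reductase used as the classical reporter of NRF2 activity, came next at 0.97 ± 0.21 (1.96-fold higher). Its probe lies on the minus strand at chr8:109912440-109912499 of mm9.
Nqo1 probe: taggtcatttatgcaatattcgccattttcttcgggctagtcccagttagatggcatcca
The signal was 65.4 units in GPHR F/F;Nes and 49.8 units in GPHR F/F, dim on both arrays. Genes in its bin of signal level had a median difference of 0.15, so 0.82 of the difference lay above genes of like level. After normexp correction, which shrinks dim signals, the difference was 0.46, and on the spike-in scale it was 0.02.

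The subunits of glutamate-cysteine ligase, the rate-limiting enzyme of glutathione synthesis, differed little and alike. Gclc, the catalytic subunit, read 1095 units in GPHR F/F;Nes and 1213 units in GPHR F/F, which after scaling gave 0.43 ± 0.20 (1.35-fold). Gclm, the modifier subunit, read 1013 units in GPHR F/F;Nes and 1146 units in GPHR F/F, which gave 0.40 ± 0.20 (1.32-fold). The gap between them, 0.03, was within the combined error of 0.29. Of all measured genes, 24.5% had a larger difference than Gclc and 26.0% a larger one than Gclm. Both raw signals were lower in GPHR F/F;Nes, and on the spike-in scale the differences were -0.52 for Gclc and -0.55 for Gclm.

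Gstm1, a mu-class glutathione S-transferase that conjugates electrophiles to glutathione, was 1.76-fold higher (0.82 ± 0.14). Its pair of probes is shown because the array annotation places them on different chromosomes, both on the minus strand of mm9. The brighter lies at chr5:117082490-117082549 and the other at chr3:107815595-107815654, though both are designed to the same Gstm1 mRNA.
Gstm1 probe placed on chromosome 5: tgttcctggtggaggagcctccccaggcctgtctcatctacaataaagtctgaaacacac
Gstm1 probe placed on chromosome 3: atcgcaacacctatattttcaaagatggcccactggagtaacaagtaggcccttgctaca
The first read 12969 units in GPHR F/F;Nes and 10610 units in GPHR F/F, a difference of 0.87 ± 0.20. The second read 4126 units in GPHR F/F;Nes and 3631 units in GPHR F/F, a difference of 0.77 ± 0.20. The probes agreed within the scanner error despite their different placement. No other probe on the array shares a run of 20 bases with either, but binding of RNA from related Gstm genes or copies was not tested. On the spike-in scale Gstm1 stood at -0.13.

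In the thioredoxin branch Srxn1, Txnrd1 and Prdx1 were all higher, by different amounts. Srxn1 encodes sulfiredoxin, which repairs overoxidised peroxiredoxins, and was 1.80-fold higher (0.85 ± 0.20). Its probe lies on the plus strand at chr2:151937009-151937068 of mm9.
Srxn1 probe: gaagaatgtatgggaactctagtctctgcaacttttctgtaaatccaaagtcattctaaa
It read 3266 units in GPHR F/F;Nes and 2709 units in GPHR F/F. Genes in its bin of signal level had a median of -0.09, so Srxn1 lay 0.95 above them. Under loess correction for level it reached 0.96, against -0.10 on the spike-in scale.

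Txnrd1, the cytosolic thioredoxin reductase, was 1.41-fold higher (0.50 ± 0.14). Its brighter probe read 2255 units in GPHR F/F;Nes and 2526 units in GPHR F/F (difference 0.42 ± 0.20). Its other probe read 637.0 units in GPHR F/F;Nes and 639.8 units in GPHR F/F (0.58 ± 0.20). Prdx1, a thiol peroxidase that reduces hydrogen peroxide, had the smallest positive difference, at 0.32 ± 0.13 (1.25-fold). Its 4 probes lay between 0.25 and 0.40, with an SD of 0.08. The value of 0.40 ± 0.38 came from a dim probe, at 6.99 units in GPHR F/F;Nes and 7.93 units in GPHR F/F. Probes as dim as that differed by a median of 0.37. The brightest Prdx1 probe read 13729 units in GPHR F/F;Nes and 15854 units in GPHR F/F. On the spike-in scale Txnrd1 stood at -0.45 and Prdx1 at -0.63. Prdx1 was beyond its error from 0 in the 75th percentile scaling, but 30.5% of all genes had a larger difference.

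In order, the differences ran from Nfe2l2 through Nqo1, Srxn1, Gstm1, Txnrd1, Gclc, Gclm and Prdx1 to Keap1. Neighbours differed by more than their combined scanner error at 2 steps, between Gstm1 and Txnrd1 (0.32 against an error of 0.20) and between Prdx1 and Keap1 (0.45 against 0.24). No neighbouring step within the first 4 genes, or within the next 4, exceeded its error. Wider gaps within either set were not compared, so neither set is shown to be uniform. The first set ran from 1.24 ± 0.17 (Nfe2l2) to 0.82 ± 0.14 (Gstm1). The step between Gstm1 and Txnrd1 was also smaller than the pooled SD of 0.36 between probes of the same gene.

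**Figure D2:**
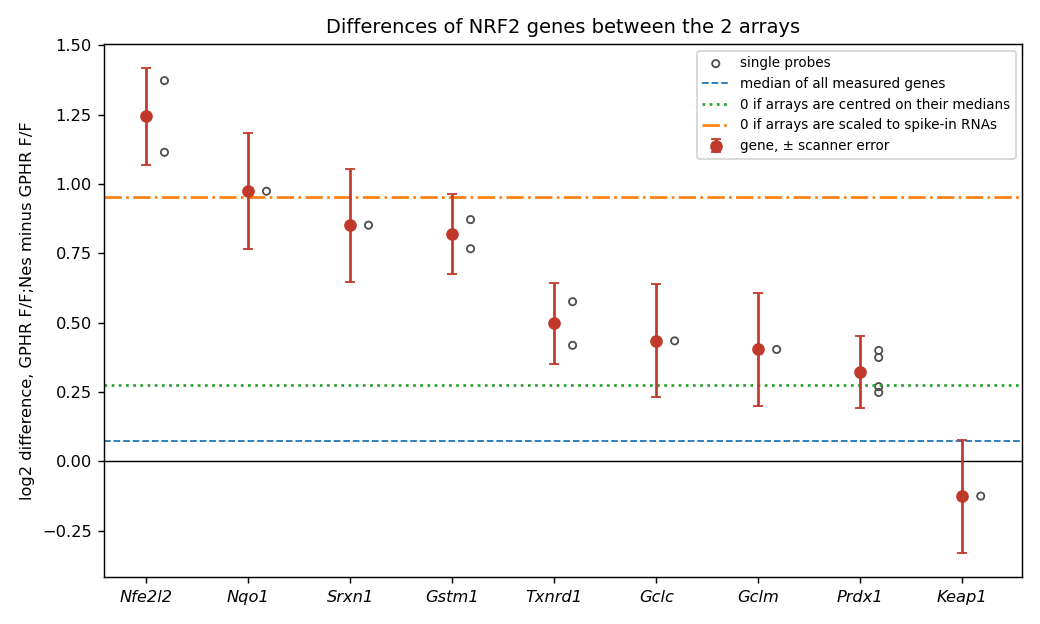
Differences of the 9 genes (filled points, bars give the scanner error) and of their single probes (open points), as log2 of GPHR F/F;Nes over GPHR F/F. The dashed line is the median of all genes at 0.07, and the other lines show where 0 would fall with arrays centred on their medians (0.28) or scaled to spike-in RNAs (0.95). All but Keap1 lie above the median of all genes, while 7 of the 9 lie below the spike-in line.

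The signal level of a gene moved with its difference across the whole array. Genes in the dimmest of 20 bins of level had a median of 0.41, and the lowest bin median was -0.12. Gclc, Gclm and Txnrd1 fell in the bin with the lowest median, and they lay 0.55, 0.52 and 0.61 above it. Nfe2l2 lay 1.21 above its bin, Gstm1 0.77 and Prdx1 0.42, whereas Keap1 lay 0.03 below its own (-0.03). The level of Nfe2l2 is the mean of a bright and a dim probe, and neither probe itself lay near that level. The level of Prdx1 likewise averages bright probes and a dim one. With a loess correction of the difference on level, the median of the 9 genes was 0.60.

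**Figure D3:**
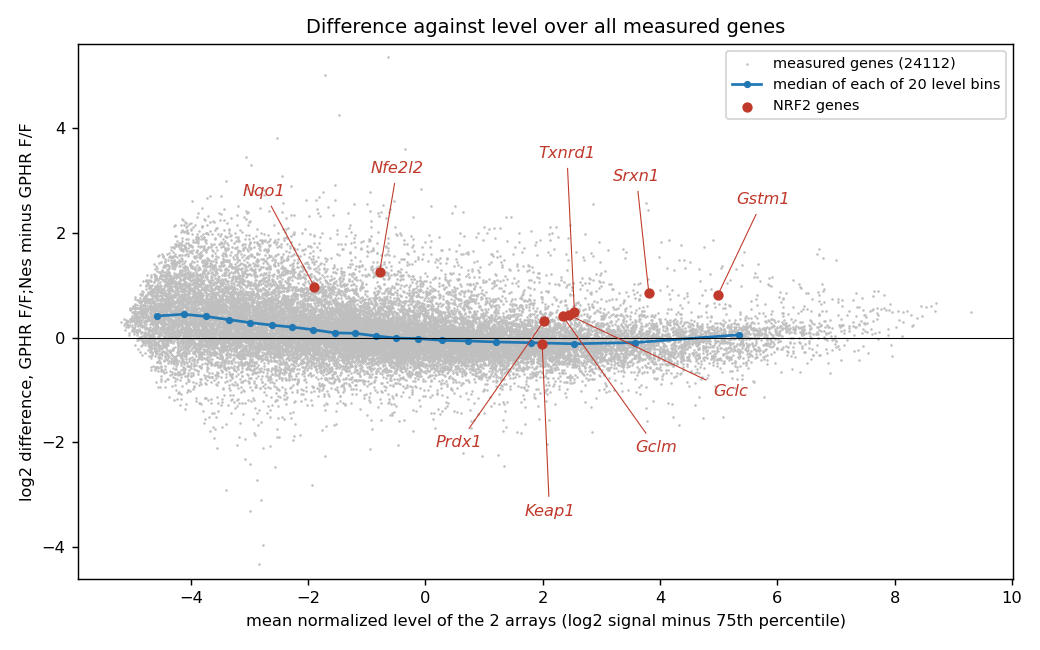
Each grey point is 1 of 24112 genes, with the mean normalized level of the 2 arrays on the horizontal axis and the log2 difference (GPHR F/F;Nes over GPHR F/F) on the vertical axis. The blue line joins the medians of 20 bins of level, which lie between -0.12 and 0.45, with 0.41 in the dimmest bin and 0.05 in the brightest. The 9 NRF2 genes are in red, and 8 lie above the blue line, which holds under any constant scaling.

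Further NRF2 targets, 22 genes not among the 9, were all measured. At least 2-fold higher were 6 (27.3% of the list, against 7.93% of all genes), and 0 were lower by 2-fold (1.37% of all genes). Above 0 lay 18 (56.9% of all genes), and the median was 0.57 (0.50 above that of all genes, and -0.38 on the spike-in scale). Hmox1, heme oxygenase 1, read 1980 units in GPHR F/F;Nes and 1424 units in GPHR F/F (1.06 ± 0.20). Blvrb, biliverdin reductase B, a later enzyme of heme breakdown, stood at 1.02 ± 0.20. The oxidative stress gene Osgin1 read 113.8 units in GPHR F/F;Nes and 76.2 units in GPHR F/F (1.16 ± 0.21). Pir, the iron-binding protein pirin, differed by 1.32 ± 0.21. Ptgr1, which reduces reactive alkenals, read 81.9 units in GPHR F/F;Nes and 57.3 units in GPHR F/F, past 2-fold after scaling. The glucuronosyltransferase Ugt1a6a had the largest difference, 1.70 ± 0.25, at a dim 30.2 units in GPHR F/F;Nes and 13.9 units in GPHR F/F, where genes of like level had a median of 0.34. Slc7a11, the cystine importer that feeds glutathione synthesis, was chosen after its values were seen and stood at 0.95 ± 0.15. Its 3 probes ranged from 0.60 to 1.14. The gene was dim, at 42.6 units in GPHR F/F;Nes and 33.1 units in GPHR F/F, where genes of like level had a median of 0.24. Also chosen after their values were seen, the targets on the other side included Blvra, the other biliverdin reductase (-0.23 ± 0.15), Cbr1, a carbonyl reductase (-0.24 ± 0.20), and Aldh3a1, an aldehyde dehydrogenase (-0.39 ± 0.21).

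Glutathione S-transferases had a median close to that of the targets, with 4 of 19 measured genes past 2-fold upward, 1 past it downward, 16 above 0 and a value of 0.51 (-0.45 on the spike-in scale). These are 21.1% and 5.26% of the list, against 7.93% and 1.37% of all genes. The median was lower after normexp (0.21), quantile (0.32) and loess correction (0.36), and that of the further targets was 0.30 after normexp. The 4 were Gstm2 (1.35 ± 0.20), Gsta2 (1.24 ± 0.27), Gsta3 (1.23 ± 0.15) and Gsta4 (1.11 ± 0.20). Gsta2 was dim, at 19.5 units in GPHR F/F;Nes and 12.4 units in GPHR F/F, and genes of like level had a median of 0.40. Mgst3, a microsomal enzyme of the same chemistry, was the one 2-fold lower, at -1.11 ± 0.16 with its probes at -1.36 and -0.86. Gstt2 cleared background only on the GPHR F/F;Nes array (at least 3.39-fold higher there), and Mgst2 only on the GPHR F/F array, where the normalized signal was at least 2.34-fold above that of GPHR F/F;Nes. In such a bound the dim side is the probe's own reading or the array's detection limit, whichever is greater. The mu-class relatives of Gstm1, singled out after their values were seen, did not move together. Gstm3 stood at 0.85, Gstm4 at 0.73, Gstm7 at 0.38 and Gstm6 at 0.14, while Gstm5 lay below 0 at -0.39.

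Glutathione synthesis, recycling and peroxidase genes outside the 9 had a median of -0.04 over 23 measured genes, with 2 past 2-fold upward (8.70%, near the 7.93% of all genes), 1 past it downward (4.35%, against 1.37%) and 14 below 0. Chac1, which breaks glutathione down and belongs to the ATF4 stress program, was lower, at 772.7 units in GPHR F/F;Nes and 2895 units in GPHR F/F (-1.32 ± 0.20, 2.50-fold lower). The glutamate and cysteine transporter gene Slc1a1 differed by -0.79 ± 0.14. Gpx8, a peroxidase of the endoplasmic reticulum, differed by 1.22 ± 0.20, and the 5-oxoprolinase Oplah by 1.14 ± 0.20. Gsr, glutathione reductase, and Gss, glutathione synthetase, both named after their values were seen, stood at -0.04 ± 0.20 and 0.23 ± 0.15. Ggt1 was not well above background on either array.

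The thioredoxin and peroxiredoxin list (19 genes, median 0.10, 14 above 0) held 1 gene past 2-fold upward (5.26%, against 7.93% of all genes) and 0 downward (against 1.37%). That gene was Msrb3, a methionine sulfoxide reductase, at 1.97 ± 0.29 and a dim 29.6 units in GPHR F/F;Nes and 11.3 units in GPHR F/F. Prdx6, a peroxiredoxin that also acts on phospholipids, followed at 0.98 ± 0.14, with 10203 units in GPHR F/F;Nes and 7746 units in GPHR F/F. Txnip, the inhibitor of thioredoxin, stood at 0.45 ± 0.15 and Nxn, nucleoredoxin, at 0.42 ± 0.15 with its probes at 0.03 and 0.82. Prdx2 to Prdx5, chosen after their values were seen, lay between 0.03 and 0.20. Among 5 genes of superoxide dismutases and catalase, none differed 2-fold (7.93% of all genes were higher and 1.37% lower by that much). Sod3 stood at 0.74 ± 0.20, Ccs at 0.50 ± 0.15, Cat at 0.30 ± 0.20 and Sod2 at -0.36 ± 0.20.

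Of 11 genes that supply NADPH, 1 was at least 2-fold higher, Idh2, the mitochondrial isocitrate dehydrogenase (1.11 ± 0.14), and 0 were 2-fold lower. That is 9.09% of the list, close to the 7.93% of all genes, of which 1.37% were 2-fold lower. The cytosolic Idh1 lay on the other side, at -0.67 ± 0.15, whereas the pentose phosphate genes Pgd (0.30 ± 0.19) and Pgls (0.30 ± 0.12) differed little. The list median was 0.15. Regulators of the pathway other than Nfe2l2 and Keap1 showed no 2-fold gene in either direction (0 of 13). Of all genes, 7.93% were 2-fold higher and 1.37% lower. Below 0 lay 8 of the 13, as did 10382 of all 24112 genes, and the list median was -0.06. Maff, a small MAF partner of NRF2, had the largest difference (0.91 ± 0.21). It was dim, at 47.4 units in GPHR F/F;Nes and 37.9 units in GPHR F/F, where genes of like level had a median of 0.20. Next came the KEAP1-bound phosphatase gene Pgam5 (-0.50 ± 0.20), the NRF2 kinase gene Gsk3b (-0.43 ± 0.10) and Bach2 (0.37 ± 0.21, probes at -0.11 and 0.86). Bach2 fell in the same bin of level as Maff.

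Over these 7 lists together, 14 of 112 measured genes were at least 2-fold higher (12.5%, against 7.93% of all genes) and 2 at least 2-fold lower (1.79%, against 1.37%). With each array centred on its median, 4 of the 14 remained 2-fold higher (Gstm2, Msrb3, Pir and Ugt1a6a). These 4 of 112 stood against 4.48% of all genes in that setting. After normexp correction 5 of the 14 remained (Gpx8, Gsta4, Gstm2, Hmox1 and Idh2), and on the spike-in scale Msrb3 alone did. Of all genes, 1.38% were 2-fold higher after normexp correction and 0.77% on the spike-in scale. The medians of all 7 lists were below 0 on the spike-in scale, from -1.01 (regulators) to -0.38 (further targets). The median of all genes on that scale was -0.88.

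**Figure D4:**
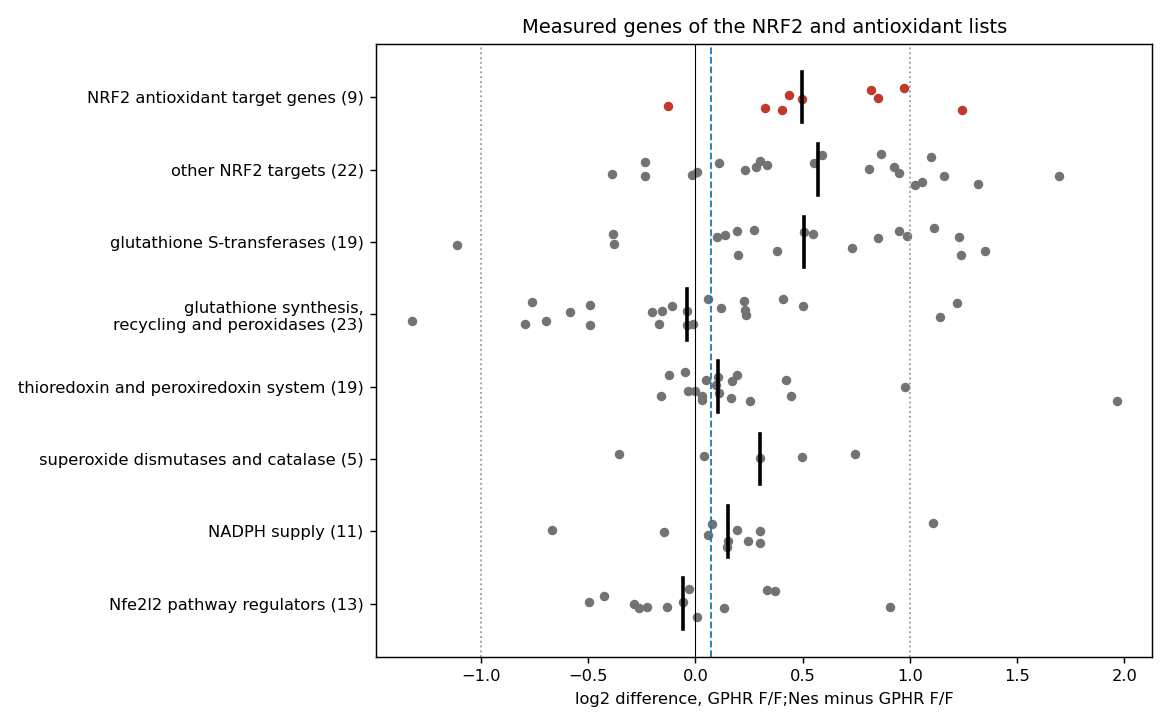
Each point is a measured gene of the list named at the left (number of measured genes in brackets), placed by its log2 difference (GPHR F/F;Nes over GPHR F/F), with black bars at the list medians. The dashed line is the median of all genes (0.07) and the dotted lines mark 2-fold. The 9 genes (red, 0.50), further NRF2 targets (0.57) and glutathione S-transferases (0.51) have the highest medians, all 3 below 0 on the spike-in scale, and glutathione synthesis genes (-0.04) and pathway regulators (-0.06) the lowest. On the spike-in scale the median of all genes is -0.88.

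Markers of several cell types differed between the same arrays, and their counts stand against 7.93% of all genes at least 2-fold higher. Genes of meninges and fibroblasts had a median of 1.75 (10 of 12 measured, 7 at least 2-fold higher), and their summed signal was 14.7 in GPHR F/F;Nes and 9.75 in GPHR F/F, in units of the array's 75th percentile. Of their brightest genes, Ptgds stood at 1.44 ± 0.06, but Dcn at -0.07 ± 0.20 and Pdgfra at -0.67 ± 0.16. Microglia markers had a median of 1.20 (10 of 12 measured, 6 at least 2-fold higher), with summed signals of 95.3 in GPHR F/F;Nes and 44.0 in GPHR F/F. Most of those sums came from the 1 probe of Itgam (1.16 ± 0.20), and without it, a step chosen after seeing the data, they were 5.40 in GPHR F/F;Nes and 3.69 in GPHR F/F. Csf1r, a receptor that microglia need to survive, stood at 0.24 ± 0.14. Choroid plexus markers had a median of 0.93 (7 of 10 measured, 3 at least 2-fold higher), with summed signals of 7.16 in GPHR F/F;Nes and 2.21 in GPHR F/F. Without Ttr, left out after seeing the data, those sums were 3.03 in GPHR F/F;Nes and 2.11 in GPHR F/F. Ttr itself stood at 5.35 ± 0.22 and Folr1 at 1.43 ± 0.15, whereas Sostdc1 stood at -0.52 ± 0.20. Tmem119 (at least 4.60-fold), Aldh1a2 (at least 10.4-fold), Clic6 (at least 4.54-fold) and Abcc9 (at least 1.87-fold) cleared background only on the GPHR F/F;Nes array.

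Endothelial and pericyte markers had a median of 1.11, but 6 of 12 were measured, and Cldn5, Cdh5, Tek, Rgs5 and Kcnj8 were not well above background on either array. The brightest were Kdr (1.23 ± 0.20), Slc2a1 (0.16 ± 0.20) and Pdgfrb (1.02 ± 0.21). The summed signal of the 6 was 10.9 in GPHR F/F;Nes and 6.59 in GPHR F/F. Astrocyte markers, the glial class with strong NRF2 activity, had a median of 0.04, with 6 of 12 above 0 and 6 below (Gfap 0.82, Slc1a3 0.48 and Aldoc -0.22). All 12 neuron markers lay below 0 (median -0.24, with Tubb3 at -0.28, Syn1 at -0.30 and Stmn2 at -0.05), as did 10382 of all 24112 genes. At least 2-fold lower were 2 of the 12 (16.7%, against 1.37% of all genes). Oligodendrocyte markers had a median of 0.09 (Olig1 -0.22, Olig2 -0.19 and Sox10 -0.88). Of 8 erythrocyte markers 1 was measured, Hba-a1 (-0.28 ± 0.06), and Slc4a1 was on the GPHR F/F;Nes array alone (at least 1.96-fold). On the spike-in scale the medians of meninges (0.80), microglia (0.25) and endothelial markers (0.16) stayed above 0, while that of choroid plexus was -0.03, of astrocytes -0.91 and of oligodendrocytes -0.86. After normexp correction the medians were 0.90 for meninges, 0.46 for microglia, 0.37 for endothelial and 0.28 for choroid plexus markers. In whole brain RNA, more cells of a type and more RNA per cell cannot be told apart, and the part of these cell types in the NRF2 gene differences was not tested.

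Promoter sequence was set beside these differences. RefSeq promoters (GRCm38.p6, 250 bases before to 50 after each start) were found for 8 of the 9 genes. They were searched on both strands for TGACNNNGC, the core of the antioxidant response element, whose reverse complement is GCNNNGTCA. The core was present for 5 of the 8 genes and in 5 of their 11 promoters, against 12.4% of 32851 promoters and 14.0% of 27025 genes. The stretches that hold it follow, with the match in capitals, since they are where a NRF2 element could be read in these genes.
Nfe2l2, chr2:75704854-75704913, minus strand: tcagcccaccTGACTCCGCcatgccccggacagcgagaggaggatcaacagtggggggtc
Srxn1, chr2:152105514-152105573, plus strand: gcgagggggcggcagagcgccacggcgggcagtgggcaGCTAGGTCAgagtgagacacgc
Gclm, chr3:122245397-122245456, plus strand: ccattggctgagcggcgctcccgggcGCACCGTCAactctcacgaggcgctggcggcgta
Prdx1, chr4:116685440-116685499, plus strand: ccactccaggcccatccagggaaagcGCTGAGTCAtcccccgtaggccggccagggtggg
Txnrd1, chr10:82859088-82859147, plus strand: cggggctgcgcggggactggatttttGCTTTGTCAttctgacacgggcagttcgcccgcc
Only the Prdx1 match contains the AP-1 motif TGAGTCA, the reverse complement of TGACTCA. The matches begin 240 bases before the start site for Nfe2l2, 134 for Gclm, 133 for Prdx1 and 92 for 1 of the 3 Txnrd1 promoters, whereas that of Srxn1 begins 29 bases into the transcript. The promoters of Keap1, Nqo1 and Gstm1 held no such letters in this window. Genes with a match (0.32 to 1.24) and those without (-0.13 to 0.97) overlapped in their differences.

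**Figure D5:**
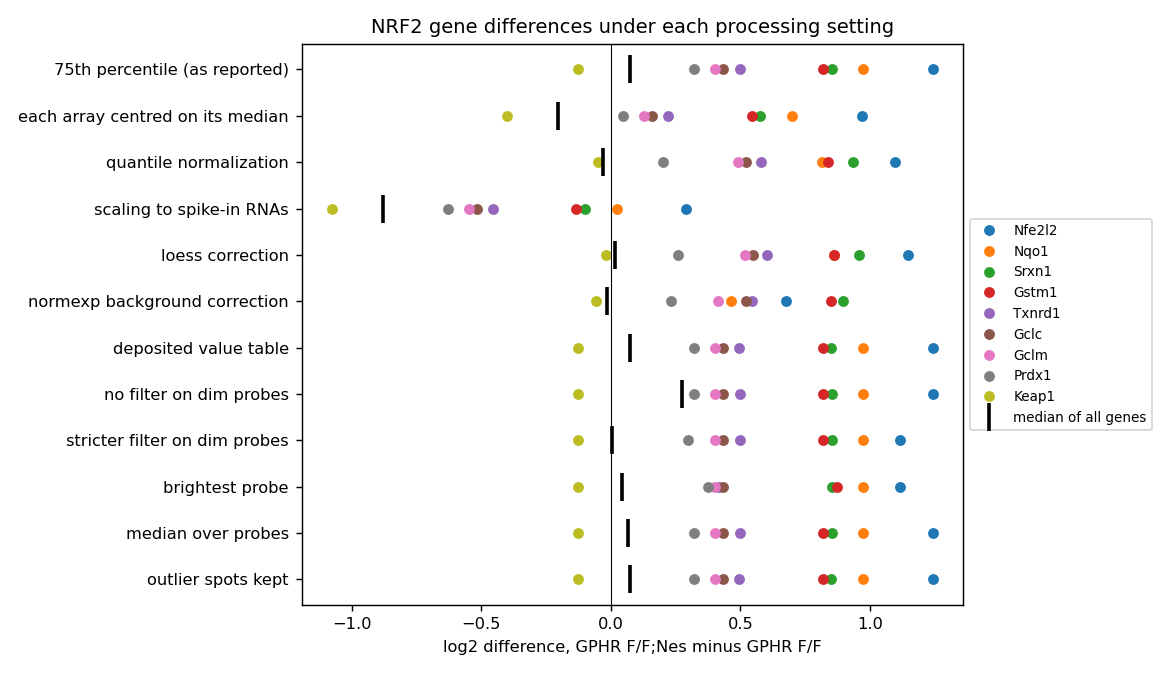
Differences of the 9 genes (coloured points, log2 of GPHR F/F;Nes over GPHR F/F) under the reported scaling and 11 alternative settings, with the median of all genes as a black bar. In each setting 8 of the 9 lie above that bar, while their position against 0 depends on the scaling, and 2 of 9 are above 0 when arrays are scaled to spike-in RNAs.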

How the data were processed

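Cy3-labelled cRNA of 2 brain samples was hybridised to 1-colour Agilent arrays, 1 per genotype, and read with Agilent Feature Extraction 11.5.1.1, per the submitters' processing notes. The deposited scanner files hold an intensity per spot on a linear scale, background-subtracted and spatially detrended per the file headers, with its error, and flags (other values, 0 or 1). The deposited table of the series is on the log2 scale. It equalled log2 processed intensity plus 1 constant per array (-7.43 for GPHR F/F;Nes and -8.01 for GPHR F/F) within 0.001 for 99.9% of probes, and its medians were -2.92 for GPHR F/F;Nes and -3.19 for GPHR F/F. The sources used here do not state how these constants were set.

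Spots flagged as outliers on either array were left out, leaving 56603 probes. Spots of 1 probe were averaged as log2, and the array's 75th percentile was subtracted. A probe was measured when well above background on both arrays (69.2% of probes were so in GPHR F/F;Nes and 67.0% in GPHR F/F, and 0 spots were saturated). A gene is the mean over its measured probes. Accessions named 32993 probes through a RefSeq table of GRCm38.p6, and the others kept the array's name. Probe positions are on mm9, per the file headers; exons and untranslated regions were not analysed here.

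The members and lists were chosen with earlier results of these data known. Named are all 9 genes, Gpr89, list genes past 2-fold or, with fewer than 4, the 4 largest differences, bounds, and the 3 brightest genes of each marker list, of which 1 is not reported here. Further genes are named as chosen after their values were seen. Alternatives were other scalings (median, quantile, spike-in, loess with span 0.3), normexp (offset 50), the deposited table, dim-probe filters (none, or 4 times the lowest signal well above background), other probe summaries, outliers kept and thresholds of 1.5-fold and 3-fold. Python 3.11.15 (numpy 2.4.6, pandas 2.3.3) and R 4.3.3 with limma 3.58.1 were used, and the calculation was tested on simulated data.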

Additional observations from a re-analysis of the deposited data

How the results depend on the processing

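No paired analysis was possible because each genotype has 1 array, and no array can be left out. Scaling mattered most: the median of all genes shifted by -0.28 with arrays centred on their medians, by -0.11 after quantile normalization and by -0.95 with spike-in scaling, and it moved by 0.20 without a filter on dim probes. The 8 spike-in RNAs themselves ranged from 0.15 to 1.30 in raw log2 difference. The median of the 9 genes was 0.22 with median centring and -0.45 with spike-in scaling, where 2 of 9 were above 0. The median of all genes stood at -0.20 with median centring and at -0.88 with spike-in scaling. At least 2-fold higher were 0 of 9 under median centring, spike-in scaling or normexp correction, against 4.48%, 0.77% and 1.38% of all genes. At a 1.5-fold threshold 4 were higher (18.1% of all genes), and 0 at 3-fold, where the share of all genes was not calculated. With spike-in scaling 1 of 9 was 2-fold lower (Keap1, -1.08), against 38.3% of all genes. In each of the 11 settings 8 of the 9 lay above the median of all genes, by a median of 0.22 (no filter) to 0.61 (quantile).

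For the 112 measured genes of the 7 pathway lists, median centring gave a median of -0.12 and 43 above 0. The median of all genes was then -0.20, and the share of all genes above 0 was not counted under either scaling. Median centring gave 4 genes 2-fold higher and 4 lower, against 4.48% and 3.39% of all genes. Spike-in scaling gave a median of -0.79 and 16 above 0, with the median of all genes at -0.88. It gave 1 higher and 30 lower, against 0.77% and 38.3% of all genes. Normexp correction gave 6 higher and 1 lower (1.38% and 0.36% of all genes). The stricter filter and the brightest probe gave 1 lower each (1.25% and 1.56% of all genes). A 1.5-fold threshold gave 26 higher and 7 lower (18.1% and 5.73% of all genes). A 3-fold threshold gave 2 higher and 0 lower, counts that cannot be read against all genes, whose share past 3-fold was not calculated. Of all measured genes past 2-fold, whether listed or not, higher ones made up 85.3% as reported, 56.9% under median centring, 68.4% under quantile normalization and 1.97% under spike-in scaling. Over all genes, 1912 were 2-fold higher and 330 lower as reported, 1081 and 818 under median centring, 1240 and 572 under quantile normalization, 186 and 9233 under spike-in scaling, 1394 and 473 under loess, 333 and 87 under normexp, 5549 and 788 without a filter, and 884 and 238 with the stricter one. No named gene past 2-fold changed sign in any setting. Nqo1, Ugt1a6a, Gsta2, Msrb3, Slc7a11 and Maff were among the dim genes named, and genes of like level had medians from 0.15 to 0.40.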
